A study of Mus musculus with 12 samples.

Results

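The genes described here are 10 interferon-inducible GTPases of the mouse. They are the immunity-related GTPases (IRGs) Irgm1, Irgm2, Igtp, Ifi47, Iigp1, Tgtp2 and Gm4841 and the guanylate-binding proteins (GBPs) Gbp2, Gbp3 and Gbp7. They were chosen by gene name with earlier results of these data known, so their difference between genotypes is given as a description with no p-value. All 10 were listed in both expression tables, among 17505 genes in all, and all 10 passed the filter on low values in both. RNA-seq was made from 1000 sorted cells per library, with 3 libraries in each of 4 groups. The genotype comparison set muscle stem cells (MuSCs) of 3 Nedd4L-cKO mice against MuSCs of 3 WT mice, males aged 5 to 6 weeks. The culture comparison set myoblasts, grown from MuSCs of 3 other WT mice for 3 days, against freshly isolated MuSCs of the same mice.

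Nedd4L-cKO mice carried Nedd4L fl/fl and Pax7 cre/+ alleles on a C57BL/6 background, so that Cre from the Pax7 locus removed exon 15 of the ubiquitin ligase gene Nedd4l in MuSCs. The sources used here do not give the alleles of the WT mice beyond the name WT. MuSCs were sorted from skeletal muscle by flow cytometry as ITGA7+ cells that lacked CD31, CD45, CD11b and SCA1. The values are counts that the authors normalized within each table, written here as normalized counts-per-million of the mean library total of that table (RPM). The totals ran from 40323468 to 50687122 normalized counts per library in the genotype table and from 33189802 to 37595659 in the culture table, and the read depth is unknown. Nedd4l, which is still transcribed without exon 15, fell from 77.8 ± 16.3 RPM in WT to 29.7 ± 6.92 RPM in Nedd4L-cKO (SD, n = 3, limma adjusted p = 0.0467). Of 10 MuSC markers all were listed, and their summed level ran from 5811 to 9846 RPM in WT and from 5080 to 8380 RPM in Nedd4L-cKO, with Cd34 called lower. The sums overlapped, but 8 of the 10 markers had a log2 difference below 0, with a median of -0.46. At an unadjusted limma p under 0.05, 3 were lower and 0 higher.

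IRGs and GBPs are large GTPases that cells make in quantity after interferon, most of all interferon-gamma. They gather on the membranes of vacuoles that hold intracellular pathogens and help to break them. IRGs fall into regulatory members, which sit on the cell's own membranes and hold the others inactive there, and effector members, which load onto the vacuole. Their genes are switched on through 2 kinds of site. Activated STAT proteins bind the gamma-activated site (GAS), and IRF proteins bind the interferon-stimulated response element (ISRE).

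The letters of these sites were looked for in the 250 bases upstream of each RefSeq gene start. The search used TTCNNNGAA for the GAS and GAAANNGAA or its reverse complement TTCNNTTTC for the ISRE core, on both strands. Of the 10 members 8 had a promoter window, and 7 of these 8, all but Ifi47, held an ISRE match. A GAS match was found in 4, namely Irgm2, Igtp, Tgtp2 and Gbp7, and these 4 held both. Over all 32851 windows searched, 7.13% held an ISRE match, 7.02% a GAS match and 0.752% both. A match is a description of letters and shows no binding.

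In 3 members the matches stood in the same arrangement, with the GAS starting 11 bases before the ISRE. That spacing and order occurred in 7 of the 32851 windows (0.0213%), a pattern noticed after the matches were seen. The 7 genes were Irgm2, Igtp, Tgtp2, Tgtp1, Gm12185, Olfr382 and LOC115488470. Of these Irgm2, Igtp, Tgtp2, Tgtp1 and Gm12185 are paralogs of the IRG family, so their windows are not independent of each other and nothing is read from the share. The stretches are shown because they carry this arrangement, 5′ to 3′ on the gene's strand, with both matches in capitals.
Irgm2: TTCCAGGAActGAAACTGAAagctgttcgg
Igtp: TTCTAGGAActGAAACTGAAagctgttcgg
Tgtp2: TTCCAGGAAtcGAAACCGAAacctactctg
On GRCm39 these are chr11:58105728-58105757 on the plus strand for Irgm2, chr11:58090337-58090366 on the plus strand for Igtp and chr11:48955091-48955120 on the minus strand for Tgtp2. The Irgm2 stretch ends 46 bases before the RefSeq start of Irgm2, inside the gene as GENCODE annotates it but in no exon. The Igtp stretch ends 16 bases before the RefSeq start and overlaps an exon that GENCODE begins further upstream. The Tgtp2 stretch ends 52 bases before the start, outside Tgtp2 and inside Or2v1 but in no exon.

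The other 4 members with an ISRE match are shown for comparison, with the ISRE letters in capitals. In Irgm1 and Gbp3 a pair of matches overlapped. In the 3 GBPs the match read in the TTCNNTTTC orientation.
Irgm1: tgtttcaaGAAATAGAAACCGAAactgatt
Gbp2: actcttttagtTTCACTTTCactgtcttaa
Gbp3: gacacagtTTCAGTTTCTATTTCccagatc
Gbp7: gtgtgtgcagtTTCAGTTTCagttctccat
They lie at chr11:48762256-48762285 on the minus strand for Irgm1, chr3:142326355-142326384 for Gbp2, chr3:142265753-142265782 for Gbp3 and chr3:142236034-142236063 for Gbp7, the last 3 on the plus strand. Each overlaps an exon in GENCODE, whose gene starts differ from those of RefSeq. Gbp7 also held 2 GAS matches further upstream, from 106 to 98 and from 87 to 79 bases before its start.

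The members lie on 3 chromosomes. Irgm1, Tgtp2, Ifi47, Igtp and Irgm2 lie on chromosome 11, where Igtp (58089840 to 58098417) and Irgm2 (58090444 to 58113615) overlap on the same strand. Gbp7, Gbp3 and Gbp2 follow each other on chromosome 3 between 142236044 and 142343779. Iigp1 and Gm4841 lie on chromosome 18, the chromosome of Nedd4l. Paralogs can share reads. Of the 31-base words in its transcripts, Tgtp2 shared 90.5% with another gene, 89.2% with Tgtp1, and Gm4841 shared 24.4%, including 15.1% with BC023105. Irgm2 shared 18.2%, including 10.2% with Igtp, and the other members shared between 4.41% and 18%. The value of Tgtp2 is therefore uncertain as a measure of Tgtp2 alone.

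In Nedd4L-cKO MuSCs the regulatory IRGs Irgm1 and Igtp stood higher than in WT, and Irgm2 overlapped with WT. Irgm1, a regulator found on Golgi, lysosome and mitochondrial membranes, measured 77.7, 85.3 and 109 RPM in WT replicates 01, 02 and 03. In Nedd4L-cKO replicates 01, 02 and 03 it measured 304, 424 and 277 RPM. Every Nedd4L-cKO library was thus above every WT library. The means were 90.7 ± 16.5 and 335 ± 78.1 RPM (SD, n = 3), a ratio of 3.69. On the log2(RPM + 1) scale, used for every log2 difference here, Irgm1 differed by 1.86 (95% confidence interval 1.30 to 2.43).

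Igtp, the regulator of the endoplasmic reticulum and lipid droplets, was tight in WT at 17.3, 17.1 and 18.6 RPM. It measured 45.2, 65.8 and 40.7 RPM in Nedd4L-cKO, again without overlap, and the means differed by a ratio of 2.86 (log2 difference 1.43 ± 0.27, SE). Irgm2, a Golgi regulator, measured 21.03, 14.4 and 14.5 RPM in WT and 9.61, 47.9 and 25.7 RPM in Nedd4L-cKO. Nedd4L-cKO replicate 01 lay below all 3 WT libraries and replicate 02 gave the highest value. The log2 difference of 0.47 ± 0.47 (SE) had an interval from -0.56 to 1.49 and was -0.05 without Nedd4L-cKO replicate 02.

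**Figure D1:**
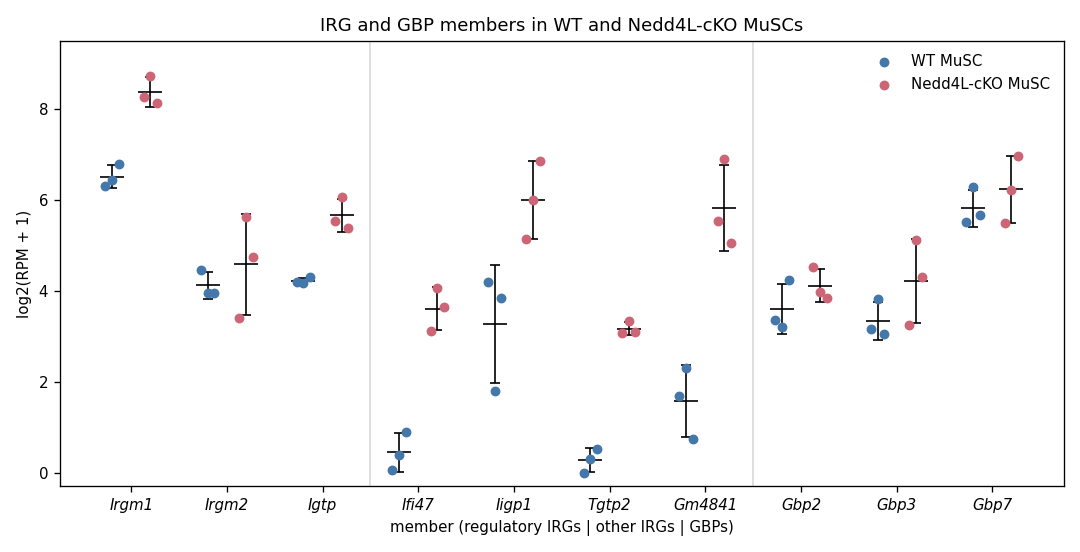
Level of each member as log2(RPM + 1) in the 3 WT and 3 Nedd4L-cKO MuSC libraries, 1 point per library, with the mean of the log2 values as a bar and their SD as whiskers. Irgm1, Igtp and all 4 other IRGs separate by genotype, while Irgm2 and the 3 GBPs overlap.

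The other 4 IRGs were low or variable in WT, and each was higher in every Nedd4L-cKO library than in any WT library. Ifi47, an IRG also known as Irg-47, measured 0.0353, 0.310 and 0.858 RPM in WT and 7.60, 15.6 and 11.5 RPM in Nedd4L-cKO. Tgtp2, an IRG that loads onto pathogen vacuoles, was listed at 0 in WT replicate 01 and measured 0.224 and 0.440 RPM in the other WT libraries. It measured 7.34, 9.06 and 7.58 RPM in Nedd4L-cKO. Both genes were thus under 1 RPM in every WT library and above it in every Nedd4L-cKO library. The log2 differences were 3.16 ± 0.39 for Ifi47 and 2.89 ± 0.34 for Tgtp2 (SE), and under the processing alternatives they ran from 1.59 to 4.90 and from 1.31 to 4.96.

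Iigp1, an effector whose GTP-bound form assembles on the vacuole of Toxoplasma, measured 17.3, 2.46 and 13.3 RPM in WT and 34.3, 62.4 and 114 RPM in Nedd4L-cKO. Its spread was wide in both groups, with means of 11.01 ± 7.67 and 70.3 ± 40.6 RPM (SD, n = 3) and a log2 difference of 2.72 ± 0.59 (SE). Gm4841, a gene predicted to code for an IRG, measured 2.22, 3.92 and 0.659 RPM in WT and 45.2, 117 and 32.1 RPM in Nedd4L-cKO. Its log2 difference of 4.25 (95% confidence interval 3.14 to 5.36) ranked 2 among the 15304 genes tested, counted from the largest increase, and that of Ifi47 ranked 6.

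The 3 GBPs overlapped between genotypes. Gbp2, which a lipid anchor ties to membranes, measured 9.18, 8.27 and 17.8 RPM in WT and 22.0, 14.6 and 13.3 RPM in Nedd4L-cKO. Gbp3 measured 7.89, 13.1 and 7.23 RPM in WT and 8.55, 33.4 and 18.7 RPM in Nedd4L-cKO. Gbp7 measured 44.7, 76.7 and 49.6 RPM in WT and 44.1, 73.6 and 124 RPM in Nedd4L-cKO. For all 3 the highest library was Nedd4L-cKO, but at least 1 Nedd4L-cKO library fell within the WT range or below it. The log2 differences were 0.51 (interval -0.27 to 1.29), 0.88 (-0.09 to 1.85) and 0.41 ± 0.36 (SE) in the same order, and all 3 intervals included 0.

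Nedd4L-cKO replicate 02 gave the highest Nedd4L-cKO value for 7 of the 10 members. Replicate 01 was the highest for Gbp2 only, and replicate 03 for Iigp1 and Gbp7. The summed level of the members was 197, 222 and 232 RPM in WT and 528, 864 and 665 RPM in Nedd4L-cKO. Irgm1 made up the largest part of the sum in all 6 libraries.

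A gene was called between genotypes where limma, a linear model with a spread shared across genes, gave an adjusted p of at most 0.05, a log2 difference of at least 1 in size and a mean of at least 5 RPM. By this rule 4 of the 10 members were called higher, Irgm1, Igtp, Ifi47 and Gm4841, and none lower. Over all 15304 genes tested, 0.451% were called higher and 0.203% lower. In 6 of 10 members every Nedd4L-cKO library was above every WT library, against 9.75% of all genes, and in none was it below, against 9.59%. The median log2 difference of the 10 was 1.65 and that of all genes 0.002. Because the members were chosen with this contrast known, nothing is read from these counts. Tgtp2 missed the level threshold and Iigp1 the p threshold. Without Nedd4L-cKO replicate 02 only Gm4841 was called.

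Iigp1 and Gm4841 lie 4.5 and 4.61 Mb from Nedd4l, the gene that carries the floxed allele in the Nedd4L-cKO mice. Whether the WT mice carried it too is not given in the sources used here. Within 10 Mb of Nedd4l on either side 103 genes were tested, of which 2 were called, both higher, Gm4841 and BC023105. The share called higher among all 15304 genes tested was 0.451%. Gm4841 shared 15.1% of its 31-base words with BC023105. These 2 genes can therefore share reads, and their calls are not independent of each other. The median log2 difference of the 103 was 0.21. The part of this linkage in the values of Iigp1 and Gm4841 was not tested.

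Markers of other cells were measured in the same libraries. The summed level of 8 myofiber markers was 162 to 347 RPM in WT and 407 to 500 RPM in Nedd4L-cKO, with 5 of the 8 not overlapping between genotypes. That of 5 pericyte and smooth muscle markers was 1144 to 1890 RPM in WT and 2150 to 3172 RPM in Nedd4L-cKO. None of the markers of either list was called by limma, but 5 of the 8 and 4 of the 5 had an unadjusted p under 0.05, all higher, while Ccnb1 of 6 myoblast markers was called higher. Of 15 immune cell markers 8 were listed, and their sums overlapped between genotypes. The sums were 5.41, 5.33 and 41.9 RPM in WT and 4.79, 9.995 and 13.5 RPM in Nedd4L-cKO, so WT replicate 03 alone was high in WT. Of the 7 tested none was called, 4 had a log2 difference above 0 and 3 below, with a median of 0.15. An unadjusted limma p under 0.05 was found for 1, which was lower. Ptprc, the gene of the pan-leukocyte marker CD45, lay between 0.140 and 0.465 RPM in all 6 libraries, and Fcer1g was listed at 0 in all 3 Nedd4L-cKO libraries. Endothelial sums were 56.5 to 104 RPM and 46.7 to 74.0 RPM, fibro-adipogenic progenitor sums 731 to 2018 RPM and 713 to 2647 RPM, and Schwann cell sums 16.8 to 36.9 RPM and 3.75 to 23.9 RPM, WT first. The part of these cells in the members' values was not tested. In bulk libraries fewer cells of a type and less RNA per cell cannot be told apart.

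In culture the 3 GBPs, the 3 regulatory IRGs and Iigp1 were lower in myoblasts, while Ifi47, Tgtp2 and Gm4841 were not called. The median log2 difference was -3.88 for the GBPs, -1.88 for the regulatory IRGs and -0.43 for the other IRGs. In this comparison a gene was called where the limma adjusted p was at most 0.05. Of the 10 members 7 were called lower in myoblasts and none higher, where 20.6% of the 15345 genes tested were called lower and 22.2% higher. In 6 members every myoblast library was below every MuSC library (26.8% of all genes) and in none above (28.4% of all genes). The median log2 difference was -1.79 for the members and 0.039 for all genes. These mice and libraries are not those of the genotype comparison. The members were nevertheless chosen with earlier results of these data known, so their counts and p-values in culture are no independent evidence of a direction. Gbp2 passed the filter of 10 normalized counts in 3 libraries through MuSCs only and so had to differ, and without it 6 of the other 9 members were called lower.

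**Figure D2:**
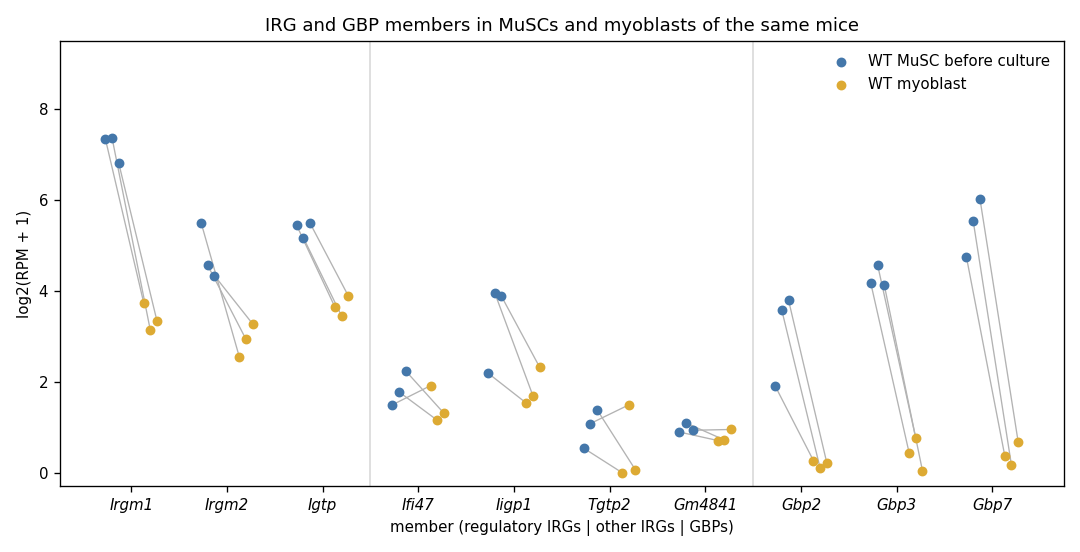
Level of each member as log2(RPM + 1) in MuSCs and in myoblasts of 3 WT mice, with a grey line joining the 2 libraries of a mouse. The 3 GBPs and the 3 regulatory IRGs fell in every mouse, while Ifi47, Tgtp2 and Gm4841 were low at both times and overlapped.

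Gbp7 measured 25.6, 45.3 and 64.2 RPM in MuSC replicates 04, 05 and 06 and 0.294, 0.120 and 0.601 RPM in myoblasts of the same mice. Its mean fell from 45.0 ± 19.3 to 0.338 ± 0.243 RPM (SD, n = 3), a ratio of 133, with a log2 difference of -5.03 ± 0.39 (SE, limma adjusted p = 2.54e-05). It was the largest decrease among the members. Gbp3 measured 16.9, 22.9 and 16.5 RPM in MuSCs and 0.356, 0.693 and 0.0284 RPM in myoblasts. The groups stood apart, with means of 18.8 ± 3.54 and 0.359 ± 0.332 RPM (SD, n = 3) and a log2 difference of -3.88 ± 0.33 (SE, limma adjusted p = 4.09e-05). Gbp2 measured 2.75, 10.9 and 12.9 RPM in MuSCs and 0.203, 0.0715 and 0.162 RPM in myoblasts. It was lower in MuSC replicate 04 than in the other 2 but far above all 3 myoblast libraries. The log2 difference was -2.89 ± 0.48 (SE), given with no p because of the filter.

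All 3 regulatory IRGs fell too. Irgm1 measured 161, 163 and 111 RPM in MuSCs and 12.4, 7.75 and 9.06 RPM in myoblasts. The means of 145 ± 29.7 and 9.73 ± 2.38 RPM (SD, n = 3) were in a ratio of 14.9, and the log2 difference was -3.77 ± 0.26 (SE, limma adjusted p = 1.47e-05). Igtp measured 42.2, 34.8 and 43.7 RPM in MuSCs and 11.4, 9.86 and 13.8 RPM in myoblasts. It fell by less than Irgm1, by 1.71 on the log2 scale (SE 0.25, limma adjusted p = 8.37e-04). Irgm2 measured 44.3, 22.5 and 19.1 RPM in MuSCs and 4.83, 6.62 and 8.64 RPM in myoblasts. Its MuSC level was highest in replicate 04, and the log2 difference was -1.88 ± 0.38 (SE, limma adjusted p = 0.00404).

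Of the other IRGs only Iigp1 was called. It measured 3.55, 14.5 and 13.7 RPM in MuSCs and 1.88, 2.21 and 3.97 RPM in myoblasts. The groups overlapped between MuSC replicate 04 and myoblast replicate 06, although the level was lower in the myoblasts of each of the 3 mice. The log2 difference was -1.50 ± 0.51 (SE, limma adjusted p = 0.0411). The call was lost without MuSC replicate 05 (limma adjusted p = 0.135) or 06 (0.129) and without myoblast replicate 04 (0.0781) or 05 (0.107).

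Ifi47, Tgtp2 and Gm4841, which were the lowest members in WT MuSCs of the genotype table, were low in both groups here. Ifi47 measured 1.81, 2.42 and 3.70 RPM in MuSCs and 2.77, 1.22 and 1.47 RPM in myoblasts, and it was lower in myoblasts of 2 mice and higher in 1. Its log2 difference was -0.38 (interval -1.15 to 0.39, limma adjusted p = 0.397). Tgtp2 measured 0.451, 1.11 and 1.60 RPM in MuSCs and 0, 1.81 and 0.0432 RPM in myoblasts, and its log2 difference was -0.48 (interval -1.41 to 0.45, limma adjusted p = 0.370). Myoblast replicate 05 alone was high, and without it the difference was -0.97 (limma adjusted p = 0.0383). Gm4841 lay between 0.632 and 1.13 RPM in all 6 libraries, with a log2 difference of -0.18 (interval -0.65 to 0.29, limma adjusted p = 0.510).

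The summed level of the 10 members was 287 to 319 RPM in MuSCs and 31 to 38.7 RPM in myoblasts. Over the same libraries the summed MuSC markers stood at 5867 to 8515 RPM in MuSCs and 670 to 726 RPM in myoblasts, and 9 of the 10 were called lower. Fibro-adipogenic progenitor markers summed to 472 to 630 RPM and 5.90 to 11.1 RPM, with 4 of 7 tested called lower and 1 higher. Endothelial sums were 42.6 to 44.7 RPM and 8.45 to 15.1 RPM. The immune sum was 6.67 to 9.23 RPM in MuSCs and 17.3 to 26.6 RPM in myoblasts, where Laptm5 alone gave 12.4 to 20.1 RPM and Ptprc 0.290 to 0.533 RPM. Of the 9 immune cell markers tested, 2 were called higher in myoblasts and 2 lower. Their log2 differences were above 0 for 5 and below 0 for 4. Summed myofiber markers stood at 117 to 353 RPM in MuSCs and 8185 to 18230 RPM in myoblasts (5 of 8 called higher), myoblast markers at 1340 to 1629 and 6521 to 7407 RPM (3 of 6 called higher), and pericyte and smooth muscle markers at 1092 to 1402 and 1633 to 2410 RPM (1 of 5 called lower). The part of these cells in the members' values was not tested.

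The plot of log2 differences sets the comparisons side by side. The genotype differences were widest among the other IRGs, from 2.72 to 4.25, and smallest among the GBPs, from 0.41 to 0.88. The culture differences were widest among the GBPs, from -5.03 to -2.89, and smallest among the other IRGs, from -1.50 to -0.18. The difference between these classes was not tested, since the members were chosen with the values known.

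**Figure D3:**
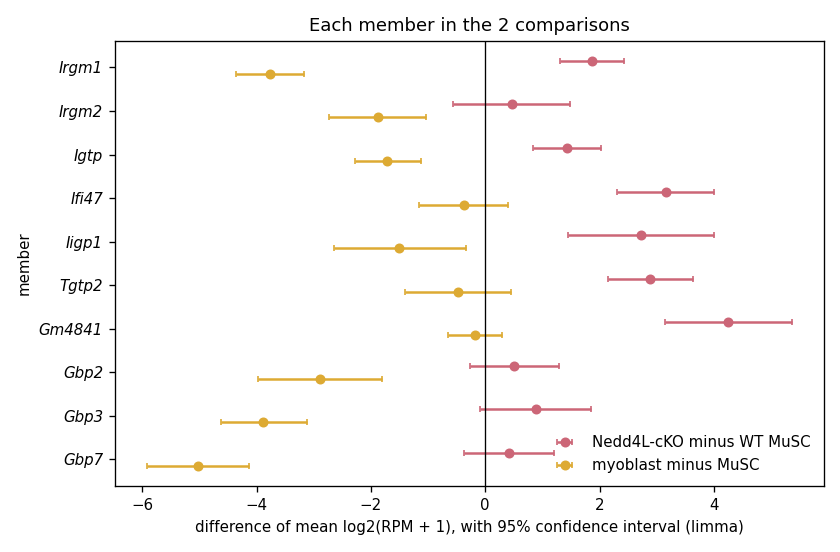
Difference of mean log2(RPM + 1) for each member between Nedd4L-cKO and WT MuSCs and between myoblasts and MuSCs, with 95% confidence intervals from limma. Every genotype estimate lies above 0 and every culture estimate below it, with intervals that include 0 for Irgm2 and the 3 GBPs by genotype and for Ifi47, Tgtp2 and Gm4841 in culture.

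The other GBPs stood higher in myoblasts, where the 3 member GBPs stood lower. Over all genes tested, 22.2% were called higher in myoblasts, and 28.4% stood higher without overlap. Of 7 other GBP genes tested, 6 were called higher in myoblasts and none lower, all 7 without overlap, with a median log2 difference of 2.78. Of the 6, Gbp4, Gbp8, Gbp10 and Gbp11 passed the filter on low values through myoblasts only and so had to differ, and they are given with no p. Gbp4 measured 0.0625, 0.132 and 0.0994 RPM in MuSCs and 5.04, 20.6 and 33.3 RPM in myoblasts (log2 difference 3.91 ± 0.58, SE). Gbp9 rose from 2.47, 8.01 and 2.06 RPM to 58.2, 27.7 and 33.1 RPM (3.08 ± 0.47, SE, limma adjusted p = 9.69e-04). Gbp6 rose from a mean of 17.4 ± 12.6 to 56.6 ± 19.4 RPM (SD, n = 3, limma adjusted p = 0.0206). Gbp10 stood at 0.0630 ± 0.109 RPM in MuSCs and 6.32 ± 0.957 RPM in myoblasts (SD, n = 3). Gbp8 was listed at 0 in all 3 MuSC libraries and measured 4.43 to 8.39 RPM in myoblasts. Gbp11 was likewise listed at 0 in MuSCs and measured 0.901 ± 0.124 RPM in myoblasts (SD, n = 3). Gbp5 was not called (limma adjusted p = 0.142). The values of Gbp6 and Gbp10 are uncertain as measures of each gene alone, since they shared 66.5% and 74.9% of their 31-base words with other genes, mostly with each other or with Gm43302. For Gbp4, Gbp9 and Gbp8 the share was between 13.7% and 24.9%, and for Gbp11 34.7%, mainly with Gbp8 and Gbp4.

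**Figure D4:**
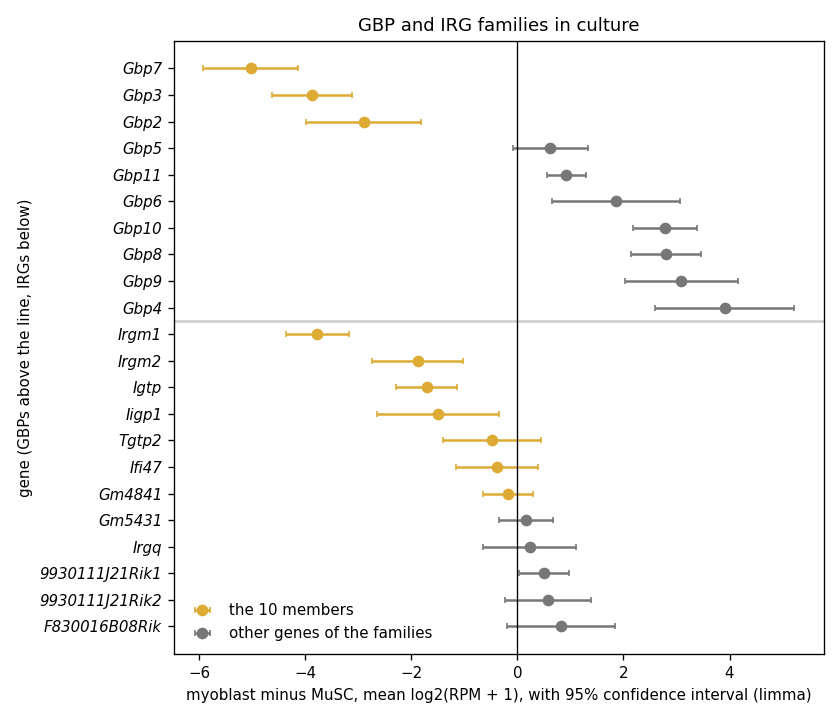
Difference of mean log2(RPM + 1) between myoblasts and MuSCs, with 95% confidence intervals from limma, for every tested GBP (above the line) and IRG (below it). Gbp2, Gbp3 and Gbp7 lie at -2.89 or lower, and the other 7 GBPs lie between 0.62 and 3.91.

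Among the other IRG genes 5 were tested in culture and none was called by limma, with log2 differences from 0.17 to 0.82 and 1 at an unadjusted p under 0.05. By genotype 7 were tested and limma called none at all thresholds, with 1 at an unadjusted p under 0.05. Gm4951, which shares 10.7% of its 31-base words with Iigp1, reached a limma adjusted p of 0.0444 at a log2 difference of 1.73 but averaged under the level threshold, at 0.462 ± 0.520 RPM in WT and 3.68 ± 0.593 RPM in Nedd4L-cKO (SD, n = 3). Tgtp1, the near copy of Tgtp2, measured 0, 0 and 0.634 RPM in WT and 0.671, 0.396 and 0.548 RPM in Nedd4L-cKO. Of 5 other GBPs tested by genotype limma called none, with 2 at an unadjusted p under 0.05, Gbp6 and Gbp10. Gbp6 measured 8.56, 2.58 and 11.2 RPM in WT and 17.7, 51.8 and 29.8 RPM in Nedd4L-cKO (limma adjusted p = 0.0885). Gbp10 was listed at 0 in all 3 WT libraries and measured 0.540 to 2.97 RPM in Nedd4L-cKO. It passed the filter on low values through Nedd4L-cKO only and so had to differ, and nothing is read from its p.

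Compared per kilobase of transcript, Irgm1 was the most abundant member in all 9 MuSC libraries, and in myoblasts in replicate 04 but below Igtp in replicates 05 and 06. In WT MuSCs of the genotype table it stood at 37.2 to 52.4 RPM per kb, above Gbp7 at 7.90 to 13.6 and Igtp at 7.49 to 8.14 RPM per kb, which overlapped. Irgm2, Gbp2 and Gbp3 followed at 2.63 to 6.03 RPM per kb for Gbp3 and Irgm2 and up to 6.995 RPM per kb for Gbp2 and did not differ beyond their spread, and Iigp1 spanned 0.810 to 5.69 RPM per kb. At the bottom Ifi47 (0.0207 to 0.502 RPM per kb) overlapped both Gm4841 (0.232 to 1.38) and Tgtp2 (0 to 0.157), which did not overlap each other. In Nedd4L-cKO the order below Irgm1 (133 to 203 RPM per kb) was Iigp1, Gm4841 and Igtp, whose ranges overlapped between 11.3 and 41.3 RPM per kb, and Tgtp2 stayed lowest by its mean at 2.61 to 3.23 RPM per kb. In myoblasts Igtp (5.11 RPM per kb in the mean) and Irgm1 (4.66 RPM per kb) overlapped, and the 3 GBPs lay between 0.0103 and 0.252 RPM per kb.

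The 2 sets of WT MuSCs came from tables normalized separately and were set side by side without a test. Gbp2, Gbp7, Iigp1, Gm4841 and Irgm2 overlapped between them. Irgm1 measured 77.7 to 109 RPM in the genotype cohort and 111 to 163 RPM in the culture cohort, Igtp 17.1 to 18.6 and 34.8 to 43.7 RPM, and Gbp3 7.23 to 13.1 and 16.5 to 22.9 RPM. Ifi47 (0.0353 to 0.858 and 1.81 to 3.70 RPM) and Tgtp2 (0 to 0.440 and 0.451 to 1.60 RPM) were also higher in the culture cohort without overlap.

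The genes upstream of the members were examined as lists. Of 15 ligands and inducers only Il12a, Il18 and Ifnz were listed, and the others, Ifng and Ifnb1 among them, were not analysed here. Il12a, a subunit of interleukin-12, which induces interferon-gamma, rose in Nedd4L-cKO from 7.88 ± 0.981 to 33.3 ± 11.7 RPM (SD, n = 3, limma adjusted p = 0.0233). It fell in myoblasts from 23.2 ± 6.32 to 8.85 ± 4.85 RPM (limma adjusted p = 0.0201). Il18 fell in myoblasts by 1.82 on the log2 scale (limma adjusted p = 0.00206) and had a log2 difference of -0.05 by genotype, while Ifnz had differences of -0.18 and 0.22.

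By genotype limma called none of the receptor, JAK and STAT genes named here, and 0 of them had an unadjusted p under 0.05. For the interferon-gamma receptor the log2 differences were 0.51 for Ifngr1 and -0.18 for Ifngr2, and for the type I receptor -0.10 for Ifnar1 and 0.45 for Ifnar2. Il10rb, shared by the interferon-lambda receptor, stood at 0.40. Among the kinases and STATs the differences were -0.17 for Jak1, -0.09 for Jak2, -0.41 for Tyk2, 0.38 for Stat2 and -0.27 for Stat3. Among 8 IRF genes tested none was called by limma, with 2 at an unadjusted p under 0.05, and Irf1 gave the largest log2 difference, 0.94, from 246 ± 83.2 to 451 ± 19.7 RPM (SD, n = 3, limma adjusted p = 0.173). The other IRF differences were 0.29 for Irf2, 0.21 for Irf3, -0.19 for Irf4, -0.19 for Irf5, 0.43 for Irf7, 0.57 for Irf8 and 0.72 for Irf9.

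In culture several of these genes fell with the members. Irf1 fell from 417 ± 95.7 to 10.3 ± 5.84 RPM (SD, n = 3, log2 difference -5.30, limma adjusted p = 9.69e-06). Of the IRFs, Irf2, Irf7, Irf8 and Irf9 fell too, with log2 differences from -4.07 to -1.97. Irf3 (-0.34) and Irf5 (-0.58) were not called. Ifngr1 fell by 2.03, Ifnar2 by 1.24, Il10rb by 0.87 and Jak1 by 1.16 on the log2 scale (limma adjusted p from 2.51e-04 to 0.0307). Ifngr2 (-0.15), Ifnar1 (0.08), Jak2 (-0.77), Tyk2 (0.43), Stat2 (-0.75) and Stat3 (-0.45) were not called. Of 8 inhibitors of the pathway 7 were tested by genotype and limma called none, with 2 higher at an unadjusted p under 0.05, and in culture Socs1, Socs3, Usp18, Ptpn2 and Pias1 fell and Pias4 rose, while Ptpn6, also called higher, passed the filter on low values through myoblasts only.

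Other targets of interferon gave the setting of the members. Of 16 interferon-gamma targets tested by genotype, Cxcl10 and B2m were called higher, Cxcl10 from 15.8 ± 4.25 to 136 ± 8.83 RPM (SD, n = 3, limma adjusted p = 0.00123) and B2m from 186 ± 67.2 to 694 ± 61.5 RPM (limma adjusted p = 0.00900). The median log2 difference of the 16 was 0.39, and at an unadjusted limma p under 0.05, 6 were higher and 0 lower. Of 23 type I interferon-stimulated genes tested, Rtp4, Ifit1 and Ifitm3 were called higher (limma adjusted p = 0.00894, 0.0490 and 0.0299), with a median of 0.76. At an unadjusted limma p under 0.05, 12 of the 23 were higher and 0 lower. Every Nedd4L-cKO library was above every WT library in 6 of the 16 and 10 of the 23, against 9.75% of all genes. In culture 10 of 15 interferon-gamma targets were called lower, with a median of -1.55. They were Serping1, Psmb8, Psmb9, Psmb10, Tap1, B2m, H2-K1, H2-D1, Cxcl10 and Cxcl11, most of which serve antigen presentation. Of 23 type I interferon-stimulated genes 13 were called lower, Ifitm3, Ifih1, Ddx58, Rsad2, Zbp1, Oasl2, Trim21, Parp9, Parp14, Dtx3l, Xaf1, Ifit2 and Ifi27, with a median of -2.16, and Oas3 was called higher. Cxcl11 passed the filter on low values through MuSCs only and Oas3 through myoblasts only, so their calls were bound to the filter. Serping1 fell from 971 ± 223 to 2.60 ± 1.31 RPM and H2-D1, a class I antigen-presenting molecule, from 647 ± 63.5 to 47.6 ± 10.9 RPM (SD, n = 3, limma adjusted p = 8.22e-07 and 5.64e-06). The medians of the members, 1.65 and -1.79, lay beyond those of both lists by genotype and between them in culture, with no test of the difference. Because the members were chosen with the genotype contrast known, nothing is read from where their medians lie.

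**Figure D5:**
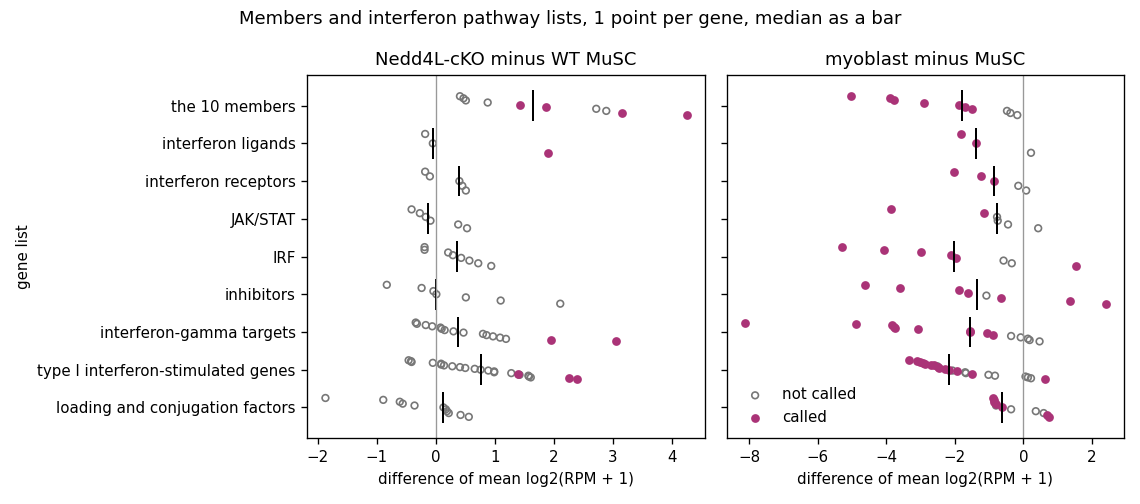
Difference of mean log2(RPM + 1) for each tested gene of the members and of 8 interferon lists, 1 point per gene, filled where called, with the median of each list as a bar. By genotype the called genes all lie above 0, and in culture most lists have their median below 0.

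IRGs and GBPs are directed to vacuoles with the help of the ubiquitin-like conjugation machinery of autophagy. None of the 11 genes in the list was called by limma by genotype, with 3 lower at an unadjusted p under 0.05, with log2 differences from -1.87 to 0.56. In culture Gabarap, Gabarapl2, Map1lc3b, Atg3 and Atg5 fell and Map1lc3a and Arhgdia rose. The median was 0.13 by genotype and -0.62 in culture.

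The members did not all follow a single profile over the 6 libraries of the genotype table. The mean of the members after centring each on its own mean was -0.96, -0.98 and -0.85 in WT and 0.48, 1.35 and 0.95 in Nedd4L-cKO. Against the mean of the other 9 members, Igtp and Ifi47 had a Pearson correlation of 0.98 and Irgm1 and Tgtp2 of 0.97, whereas Gbp2 and Gbp7 had 0.43 and Irgm2 0.50. These are descriptions over 6 libraries of 2 groups, which share the genotype difference that chose the members. Of 10037 genes outside the families with a mean of at least 5 RPM, 45 (0.448%) correlated above 0.95 with the member profile. The 5 most alike were Ces1d, a carboxylesterase (0.993), Lbp, the lipopolysaccharide-binding protein (0.992), Vstm2a (0.990), Coa4, an assembly factor of respiratory complex IV (0.989), and Flrt2, a cell adhesion protein (0.987). Ces1d measured 0 to 0.411 RPM in WT and 7.07 to 22.7 RPM in Nedd4L-cKO. In the culture comparison the correlation with the member profile was 0.992 for Lbp and 0.976 for Vstm2a. It was -0.580 for Coa4 and -0.230 for Flrt2, and Ces1d was not tested there.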

How the data were processed

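RNA was measured by SMART-Seq HT and Nextera XT libraries of 1000 cells. The authors pseudoaligned single-end reads with kallisto 0.46.1 to the GENCODE basic annotation, summed transcripts to genes with tximport and normalized with DESeq2. The deposited unit is a signal. The authors scaled gene counts by normalization factors, in each table apart from the other. Whole reads were not recovered from them, so the depth of a library is unknown and no counting interval was computed. The tables also hold fold changes, p-values and significance marks of the authors' own comparisons and RPM columns, none of which entered here.

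Values were divided by the mean of the 6 library totals of a table (RPM) and analysed as log2(RPM + 1), so that the log2 difference of a low gene is understated. A gene was tested where 3 or more of the 6 libraries held 10 or more normalized counts, with limma 3.58.1 in R 4.3.3 (trend and robust moderation, 3 against 3 libraries, no covariates), with Benjamini-Hochberg adjustment over the table. The fit was tested on simulated data. MuSC and myoblast libraries with the same number came from the same mouse, and their deviations from the group means correlated between -0.031 and 0.018. MuSC libraries of different genotypes came from different mice, and nothing says that a shared replicate number pairs them. Samples were grouped by their labels, the libraries of a group came from separate mice, and no batch or date is given.

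The members, lists and named-gene rule were chosen with earlier results of these data known. The rule names every member, every called gene of a pathway list in counts or by name, each detected ligand, receptor, JAK, STAT and IRF gene, and the 5 genes most like the member profile. Some genes of these lists are counted but not reported here by name. BC023105, Gm4951, Gbp6, Gbp10, Tgtp1 and Laptm5 were named after their values were seen where no rule covers them. Positions and transcript lengths came from GENCODE M39 on GRCm39, a later release than the authors' on the same build. Promoter windows came from RefSeq (GRCm38.p6) and were placed on GRCm39 by exact match. Alternatives changed the pseudocount, filter, scaling, moderation, replicate block and libraries, and summed Tgtp1 with Tgtp2.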

Additional observations from a re-analysis of the deposited data

How the results depend on the processing

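Over the 15 alternatives by genotype, 137 values of single members kept their direction and their side of the threshold, 10 kept their direction but lost the call (Irgm1, Igtp and Ifi47) and 1 reversed. That was Irgm2, which ran from -0.05 to 1.06 with a library left out. Over 14 alternatives in culture 127 were kept, 5 lost the call (Iigp1) and 1 gained it (Tgtp2). Called genes over the genotype table numbered 100, and 195 under a filter of 10 normalized counts in each library, 41 without trend and robust moderation, 62 with the replicate block and 17 to 148 with a library left out (17 without Nedd4L-cKO replicate 02). Called members numbered 4, 3 with the replicate block and 1 to 4 with a library left out. Their median of 1.65 became 1.16 under that filter, which left 8 members. With a library left out in culture, 5 to 7 members were called, and Gbp2 could not be tested whenever a MuSC library was left out. In culture 4 members were called under the filter on each library, which left 6, and the median was -1.39 with a pseudocount of 5 RPM. The replicate block changed no member call in culture (7). For numbers shared across genotypes, which mark no known pair, the deviations correlated between -0.181 and 0.019, so nothing is read from the replicate block by genotype. Scaling libraries to their own totals moved the split of called genes from 69 higher and 31 lower to 49 and 38 by genotype. Iigp1 lost its culture call under that scaling (limma adjusted p = 0.0568). Tgtp1 could be summed with Tgtp2 by genotype only and left 4 members called. In the main fit the differences of Gbp2, Gbp3 and Gbp7 by genotype lay under the log2 threshold of 1 and also missed the p threshold. Gbp3 reached 1.37 without Nedd4L-cKO replicate 01 and 1.12 without WT replicate 02, where it missed the p threshold only. The cause of these shifts was not tested.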
